A study of Mus musculus with 13 samples.

Results

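The 10 genes described here are Cybrd1, Slc11a2, Tfrc, Slc40a1, Heph, Fth1, Hmox1, Ireb2, Epas1 and Ankrd37. They belong to the passage of iron through intestinal cells, its sensing and storage, the breakdown of heme, or the hypoxia response. Each was read from the probe set annotated to that symbol alone, which was 1 probe set for each of the 10. They are 10 of the 19938 genes measured and 10 of the 16721 genes tested. The genes were picked with their log2 levels across the 6 groups in view. Their own differences between groups are therefore given as descriptions. Where the fit over all genes called some of them, the count is given beside the share of all genes, and nothing is read from it.

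Enterocytes from mice on a 129/SVJ background were profiled on Affymetrix arrays, with 2 biological replicates per group. All groups carried a gut-specific knockout of casein kinase I alpha (CKIalpha), a kinase that restrains Wnt signalling, on at least 1 allele. The CKIalpha KO, CKIalpha KO/p21 KO and CKIalpha KO/p53 KO mice were homozygous for it. Their counterparts, CKIalpha Het, CKIalpha Het/p21 KO and CKIalpha Het/p53 KO, were heterozygous, and no group with both CKIalpha alleles intact was analysed here. The p21 KO and p53 KO mice lacked, beside CKIalpha, the cell cycle inhibitor p21 or the tumour suppressor p53. The driver that restricts the knockout to the gut, the ages of the animals and the segment of the intestine are not given in the sources used here.

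All values are log2 intensities, so a step of 1 is a doubling. The arrays' medians lay between 4.96 and 5.12 and their 25th percentiles between 3.59 and 3.73. The absorptive enterocyte markers, 16 of 16, exceeded the array median on all 12 arrays. The probe set of Csnk1a1, the gene of CKIalpha, read 10.55 to 10.80 on the 6 CKIalpha KO arrays and 10.44 to 10.78 on the 6 CKIalpha Het arrays. These ranges overlap, and which exons the probes cover is not given in the sources used here, so this gene gave no check of the genotype labels. Xist was 3.15 to 3.94 on every replicate 1 array and 8.91 to 10.1 on every replicate 2 array, and the Y-linked genes Eif2s3y, Kdm5d and Uty ran the other way. The replicates of a group therefore differ by this pattern as well, and each group holds 1 array of each kind. The remaining array of the 13, titled CKIalpha KO/p53 KO (3), has a genotype label that names a CKI knockout alone, and it entered no comparison.

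In the absorptive cells of the duodenum, Cybrd1 reduces ferric iron at the brush border and Slc11a2 carries the ferrous iron into the cell. Slc40a1 (ferroportin) exports it across the basolateral membrane, where the ferroxidase Heph oxidises it for loading onto transferrin. Iron-regulatory proteins such as Ireb2 bind the messenger RNAs of Tfrc, Fth1, Slc11a2 and Slc40a1 when cellular iron changes, and Epas1 (HIF-2 alpha) activates Cybrd1, Slc11a2 and Slc40a1 transcription when iron or oxygen is low.

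The sequences just before the annotated transcription starts of Cybrd1 and Tfrc are shown because hypoxia-inducible factors such as Epas1 bind the core ACGTG or GCGTG, and because Cybrd1 had the widest range of the 10 genes over the arrays while the Tfrc levels largely overlapped between groups. Each is 250 bases long and comes from RefSeq on GRCm38.p6. The Cybrd1 window lies at chr2:71117804-71118053 and the Tfrc window at chr16:32608646-32608895, both on the plus strand and printed 5′ to 3′. Capitals mark every ACGTG or GCGTG on either strand, so that a match on the other strand reads CACGT or CACGC.
Cybrd1: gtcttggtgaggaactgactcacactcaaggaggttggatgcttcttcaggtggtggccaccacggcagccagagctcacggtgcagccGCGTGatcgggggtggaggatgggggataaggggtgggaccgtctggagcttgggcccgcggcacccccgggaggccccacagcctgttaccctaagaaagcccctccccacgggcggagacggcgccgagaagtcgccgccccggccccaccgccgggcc
Tfrc: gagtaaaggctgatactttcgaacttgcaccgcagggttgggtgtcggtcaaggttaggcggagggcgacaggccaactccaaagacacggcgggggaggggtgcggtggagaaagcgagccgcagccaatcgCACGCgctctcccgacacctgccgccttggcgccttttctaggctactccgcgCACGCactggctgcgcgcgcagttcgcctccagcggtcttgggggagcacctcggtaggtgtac
The Cybrd1 window holds 1 GCGTG and this Tfrc window 2, and neither holds ACGTG. The RefSeq table has a second Tfrc window, chr16:32608872-32609121, which is not printed and holds 1 ACGTG and 2 GCGTG. Of all 32851 windows of this length in the RefSeq table, 38.6% hold ACGTG or GCGTG and 16.6% hold ACGTG. Windows were found for 5 of the 10 genes, namely Cybrd1, Tfrc, Fth1, Ireb2 and Ankrd37, with 7 windows in all. Of these, 5 hold either core and 2 hold ACGTG. The Ankrd37 window has 2 ACGTG and 2 GCGTG, and the 2 GCGTG overlap on opposite strands. A match in these letters is a description of the window and not a binding site. Slc40a1, Slc11a2, Heph, Hmox1 and Epas1 had no window in the table.

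With CKIalpha lost, the gene of the brush border reductase and the gene of the basolateral exporter were higher on all 6 CKIalpha KO arrays than on all 6 CKIalpha Het arrays, whichever background they came from. The share of all genes that separate these arrays in this way was not counted. Since the genes were picked with their levels in view, nothing is read from this separation. The rest of the 10 genes moved less or in part of the backgrounds. Fewer cells of a type and less RNA per cell cannot be told apart in these bulk samples.

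Cybrd1, the duodenal ferric reductase, read 7.72 and 11.81 in CKIalpha KO enterocytes and 5.24 and 5.29 in CKIalpha Het enterocytes. Without p21 it read 9.94 and 10.25 in CKIalpha KO/p21 KO and 5.60 and 5.23 in CKIalpha Het/p21 KO. Without p53 it read 12.60 and 11.90 in CKIalpha KO/p53 KO and 6.55 and 5.07 in CKIalpha Het/p53 KO. No CKIalpha KO array overlapped a CKIalpha Het array, and the 2 CKIalpha KO arrays with p53 and p21 present lay farther apart than those of any other group. The log2 difference was 4.50 ± 1.01 (SE of the limma fit), or 22.6-fold, in the CKIalpha KO comparison. It was 4.68 ± 1.01, or 25.6-fold, in the p21 KO background, and 6.44 ± 1.01, or 87.1-fold, in the p53 KO background. Between arrays of the same replicate number, the differences were 2.48 and 6.52 for CKIalpha KO, 4.34 and 5.02 for CKIalpha KO/p21 KO, and 6.05 and 6.83 for CKIalpha KO/p53 KO. The order of the group means placed CKIalpha KO/p53 KO first at 12.25 ± 0.49 (SD, n = 2), above both other CKIalpha KO groups with no shared range. The lower CKIalpha KO/p53 KO array, at 11.90, was close to the higher CKIalpha KO array, at 11.81. CKIalpha KO/p21 KO at 10.09 ± 0.23 and CKIalpha KO at 9.77 ± 2.89 overlapped, and so did the 3 CKIalpha Het groups, whose means were 5.27 to 5.81.

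Slc11a2 encodes DMT1, the ferrous iron importer of the brush border. It read 8.60 and 9.99 in CKIalpha KO and 8.43 and 8.24 in CKIalpha Het. The values were 8.73 and 7.83 in CKIalpha KO/p21 KO against 8.27 and 7.94 in CKIalpha Het/p21 KO, and 12.18 and 9.65 in CKIalpha KO/p53 KO against 8.65 and 8.65 in CKIalpha Het/p53 KO. The p21 groups overlapped, whereas the other CKIalpha KO groups lay above their CKIalpha Het counterparts, by as little as 0.16 and as much as 3.53 between arrays of the same replicate number. The difference was 0.96 ± 0.70 in CKIalpha KO, 0.17 ± 0.70 with p21 knocked out and 2.27 ± 0.70, or 4.81-fold, with p53 knocked out. In the p53 comparison, replicate 1 gave 3.53 and replicate 2 gave 1.00, so the size of this difference rests largely on the replicate 1 array at 12.18.

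Tfrc, the transferrin receptor, takes up transferrin-bound iron from the blood side. It read 9.55 and 9.07 in CKIalpha KO against 9.56 and 9.65 in CKIalpha Het, 9.50 and 10.04 in CKIalpha KO/p21 KO against 9.89 and 9.39 in CKIalpha Het/p21 KO, and 10.67 and 10.29 in CKIalpha KO/p53 KO against 9.44 and 10.32 in CKIalpha Het/p53 KO. The p21 and p53 pairs of groups overlapped. The CKIalpha KO arrays lay below the CKIalpha Het arrays, nearly touching at 9.55 and 9.56. The differences were -0.29 ± 0.31, 0.13 ± 0.31 and 0.60 ± 0.31 in these 3 comparisons.

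Slc40a1, the iron exporter ferroportin, read 8.07 and 10.68 in CKIalpha KO and 5.60 and 6.12 in CKIalpha Het. Without p21 it read 8.61 and 9.83 in CKIalpha KO/p21 KO and 6.05 and 5.37 in CKIalpha Het/p21 KO. Without p53 it read 11.58 and 10.95 in CKIalpha KO/p53 KO and 6.83 and 5.77 in CKIalpha Het/p53 KO. As for Cybrd1, the lowest CKIalpha KO array stood above the highest CKIalpha Het array, and in CKIalpha KO the replicate 1 array was the lower. The difference was 3.51 ± 0.74, or 11.4-fold, in CKIalpha KO. It was 3.52 ± 0.74, or 11.4-fold, with p21 knocked out and 4.96 ± 0.74, or 31.2-fold, with p53 knocked out. The means ran from 11.26 ± 0.44 in CKIalpha KO/p53 KO through 9.37 ± 1.84 in CKIalpha KO and 9.22 ± 0.86 in CKIalpha KO/p21 KO to 5.71 to 6.30 in the 3 CKIalpha Het groups. Only the steps below CKIalpha KO/p53 KO and below CKIalpha KO/p21 KO in that order separated neighbours without overlap.

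Heph, the ferroxidase that works beside ferroportin, lay between 10.01 and 10.69 on all 12 arrays. Its groups overlapped in the p21 and p53 comparisons and in the CKIalpha KO comparison. The differences were 0.23 ± 0.21, -0.10 ± 0.21 and 0.01 ± 0.21 in CKIalpha KO, CKIalpha KO/p21 KO and CKIalpha KO/p53 KO against their CKIalpha Het counterparts. The exporter's partner stayed within a range of 0.68 while the exporter ranged over 6.21.

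**Figure D1:**
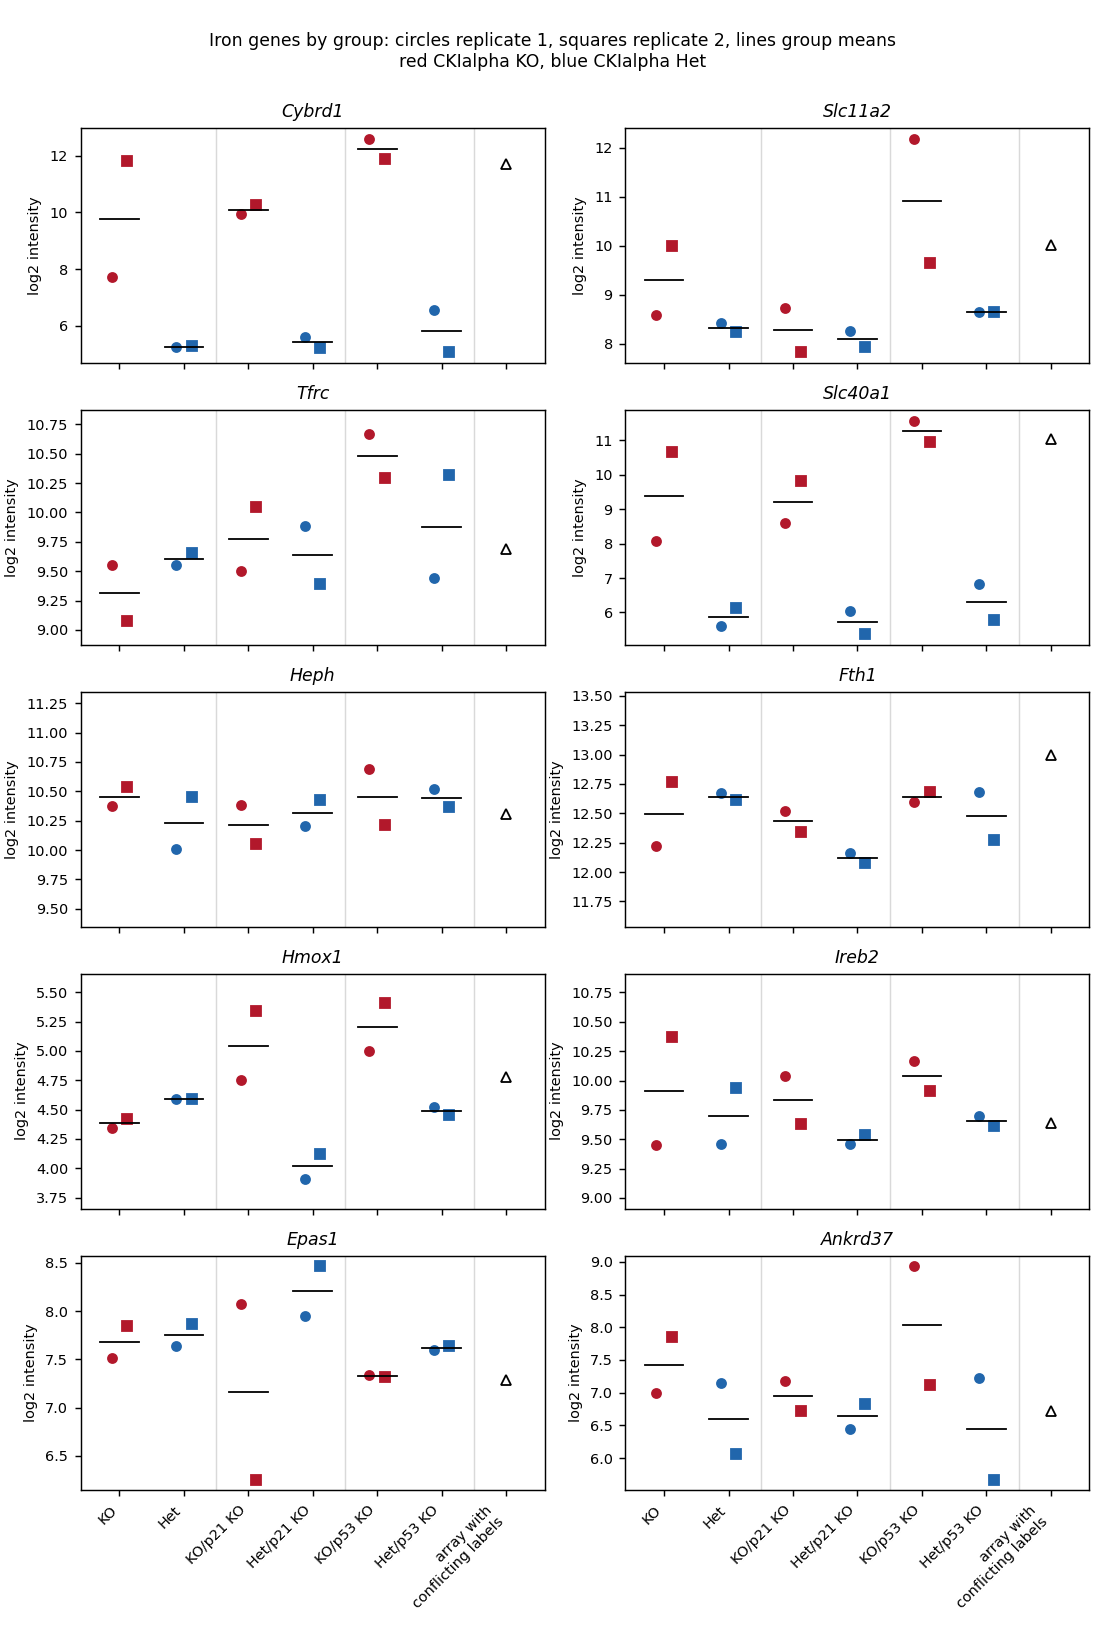
Log2 intensity (vertical axis) of the 10 iron genes on each array, by group (horizontal axis), with circles for replicate 1, squares for replicate 2, lines for group means and a triangle for the array with conflicting labels. For Cybrd1 and Slc40a1 the 6 CKIalpha KO arrays (red) stand above the 6 CKIalpha Het arrays (blue), and for Heph and Fth1 all groups stay within a range of 0.70.

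Among the genes of storage and heme breakdown, Fth1, the ferritin heavy chain, was the steadier. It read 12.22 to 12.77 on the 6 CKIalpha KO arrays and 12.07 to 12.68 on the 6 CKIalpha Het arrays. The differences were -0.15 ± 0.20, 0.32 ± 0.20 and 0.16 ± 0.20 in the CKIalpha KO, p21 and p53 comparisons. In the p21 comparison, 12.52 and 12.34 in CKIalpha KO/p21 KO lay above 12.16 and 12.07 in CKIalpha Het/p21 KO, and the CKIalpha Het/p21 KO arrays were themselves the lowest of the 12.

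Hmox1, heme oxygenase 1, frees iron from heme. It read 4.35 and 4.42 in CKIalpha KO against 4.59 and 4.59 in CKIalpha Het, 4.75 and 5.34 in CKIalpha KO/p21 KO against 3.91 and 4.12 in CKIalpha Het/p21 KO, and 4.999 and 5.41 in CKIalpha KO/p53 KO against 4.52 and 4.45 in CKIalpha Het/p53 KO. The CKIalpha KO arrays were below their counterparts where p53 and p21 were present and above them where either was knocked out. The differences were -0.21 ± 0.20 in CKIalpha KO, 1.03 ± 0.20, or 2.04-fold, with p21 knocked out, and 0.72 ± 0.20, or 1.64-fold, with p53 knocked out. Of the 12 arrays, 3 placed Hmox1 above the array's median, so it was read near the dim end. The equal values of the 2 CKIalpha Het arrays are no sign of precision, since 12405 of the 35556 probe sets share a value on 2 or more arrays. The p21 difference also includes a lower CKIalpha Het/p21 KO level, which was -0.58 against CKIalpha Het.

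Ireb2, an iron sensor that binds messenger RNA, lay between 9.45 and 10.37 on the CKIalpha KO arrays and between 9.46 and 9.94 on the CKIalpha Het arrays. Its differences were 0.21 ± 0.28, 0.33 ± 0.28 and 0.39 ± 0.28 in the CKIalpha KO, p21 and p53 comparisons. The p21 and p53 pairs of groups did not overlap, with the CKIalpha KO arrays the higher, and the CKIalpha KO pair did.

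Epas1, the hypoxia-inducible factor subunit that drives intestinal iron uptake genes in mice, read 7.52 and 7.84 in CKIalpha KO and 7.64 and 7.86 in CKIalpha Het. It read 8.07 and 6.25 in CKIalpha KO/p21 KO against 7.95 and 8.47 in CKIalpha Het/p21 KO, and 7.34 and 7.32 in CKIalpha KO/p53 KO against 7.60 and 7.64 in CKIalpha Het/p53 KO. Messenger RNA of this factor was thus not above its CKIalpha Het counterparts on both arrays of any CKIalpha KO group, and only the p53 pair of groups did not overlap. The differences were -0.07 ± 0.45, -1.04 ± 0.45 and -0.29 ± 0.45. Within the p21 comparison, replicate 1 gave 0.13 and replicate 2 gave -2.21, so the array at 6.25 sets that value. These arrays measured no protein level of the factor.

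Ankrd37, a transcript known to be induced by hypoxia-inducible factors, read 6.9995 and 7.85 in CKIalpha KO against 7.14 and 6.06 in CKIalpha Het. It read 7.18 and 6.71 in CKIalpha KO/p21 KO against 6.45 and 6.83 in CKIalpha Het/p21 KO, and 8.93 and 7.12 in CKIalpha KO/p53 KO against 7.23 and 5.67 in CKIalpha Het/p53 KO. All 3 pairs of groups overlapped. The differences were 0.82 ± 0.65, 0.31 ± 0.65 and 1.58 ± 0.65. Within the p53 comparison both replicate numbers gave a higher CKIalpha KO/p53 KO value, by 1.71 and 1.45, and the replicate 1 array was the higher in both genotypes.

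**Figure D2:**
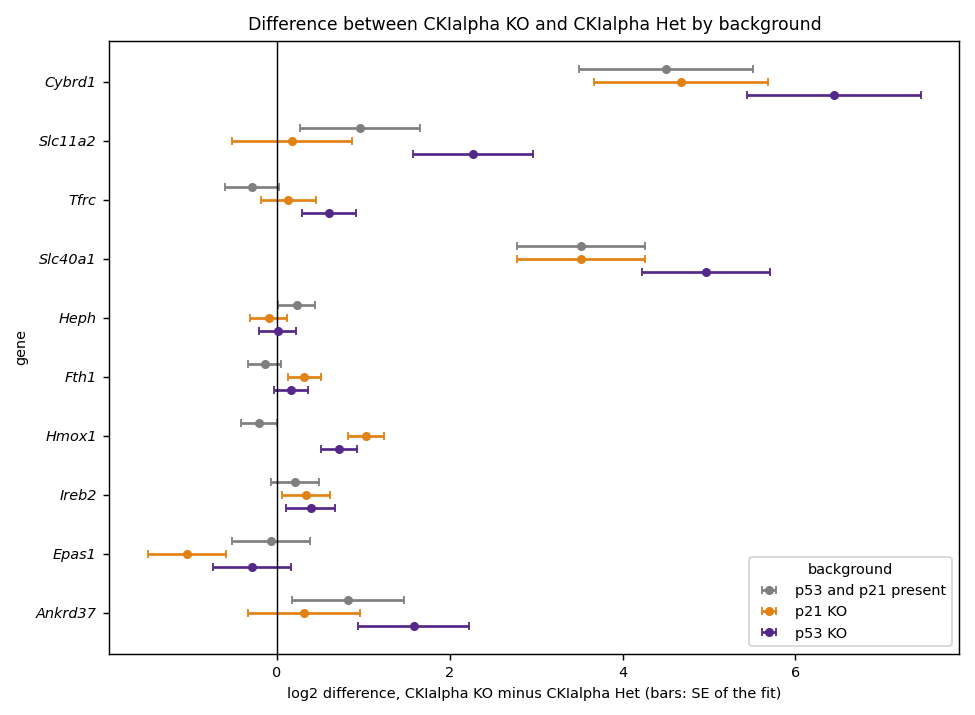
Log2 difference (horizontal axis) between CKIalpha KO and CKIalpha Het enterocytes for the 10 iron genes (vertical axis) in each of the 3 backgrounds, with bars for the standard error of the fit. Cybrd1 and Slc40a1 lie at 3.51 or more in every background, and every other gene at 2.27 or less.

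Set against all genes, the counts for these 10 were as follows. A gene was called in a comparison at a Benjamini-Hochberg adjusted p under 0.05, over the 16721 genes of the limma fit. In CKIalpha KO against CKIalpha Het, 0 of the 10 genes were called, beside 0.0239% of all genes, and 2 of the 10 had an unadjusted p under 0.05, beside 9.09%. With p21 knocked out, 3 of 10 were called higher in CKIalpha KO/p21 KO, namely Cybrd1, Slc40a1 and Hmox1, beside 1.46% of all genes. With the replicate number, which follows the Xist pattern, as a block, Hmox1 was the only one of the 3 called there. With p53 knocked out, the same 3 genes were called higher in CKIalpha KO/p53 KO, beside 11.0% of all genes. Slc11a2 was not called with p53 knocked out in this fit, but it was in 7 of 18 alternative settings. None of the 10 was called lower in these comparisons. Since the genes were chosen on these arrays, nothing further is read from the counts. Cybrd1, Slc40a1 and Hmox1 were each called in 5 of 18 alternative settings with p21 knocked out, and 0 of the 10 genes were called after leaving out either array of CKIalpha Het, CKIalpha Het/p21 KO, CKIalpha KO/p53 KO or CKIalpha Het/p53 KO, or replicate 2 of CKIalpha KO/p21 KO. With p53 knocked out, Cybrd1 and Slc40a1 were called in 17 of 18 settings and Hmox1 in 11, and 0 were called without replicate 1 of CKIalpha Het/p53 KO. Without that array 10 of all genes were called higher and 10 lower, against 1841 higher and 1140 lower with it.

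Non-overlap alone was common at 2 arrays per group. Both CKIalpha KO arrays exceeded both CKIalpha Het arrays for 3 of the 10 genes, against 22.3% of all genes. The counts were 5 of 10 against 26.9% with p21 knocked out and 5 of 10 against 28.9% with p53 knocked out. Both CKIalpha KO arrays were below for 2, 0 and 1 of the 10 genes, beside 16.8%, 24.3% and 35.7% of all genes. The median difference of the 10 genes was 0.22, 0.31 and 0.66 in these comparisons, and that of all genes was 0.02, -0.01 and -0.06.

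The loss of p53 together with CKIalpha was compared with the loss of CKIalpha alone. Both CKIalpha KO/p53 KO arrays stood above both CKIalpha KO arrays for 4 of the 10 genes, where 23.8% of all genes did so. The differences of these 4 were 2.48 for Cybrd1, 1.89 for Slc40a1, 1.17 for Tfrc and 0.82 for Hmox1. The first 2 rest on the low replicate 1 array of CKIalpha KO: between replicate 2 arrays they were 0.09 and 0.27, and without that array they were 0.44 and 0.58, against 4.53 and 3.19 without replicate 2 of CKIalpha KO. Slc11a2 differed by 1.62 with overlapping arrays. Against CKIalpha KO/p21 KO, CKIalpha KO/p53 KO enterocytes differed by 2.64 for Slc11a2, 2.16 for Cybrd1, 2.04 for Slc40a1 and 1.08 for Ankrd37. All 10 differences in that comparison were above 0. The median over all genes was 0.01, and the share of all genes above 0 was not counted. With 1 array left out, the sign turned for Epas1 (-0.75), Hmox1 (-0.14) and Heph (-0.0027). Both CKIalpha KO/p53 KO arrays were the higher for 5 of 10 genes (Cybrd1, Slc40a1, Slc11a2, Tfrc and Fth1), beside 18.4% of all genes. Of the 10 genes, 0 were called in either comparison, beside 0.694% and 0.329% of all genes, and 5 and 3 had an unadjusted p under 0.05 in the limma fit, beside 22.3% and 9.01%. Both comparisons share the CKIalpha KO/p53 KO arrays.

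Adding p21 loss to CKIalpha loss left Cybrd1 at a difference of 0.33 and Slc40a1 at -0.15 between CKIalpha KO/p21 KO and CKIalpha KO, both smaller than the spread between the 2 CKIalpha KO arrays. Slc11a2 differed by -1.02, Hmox1 by 0.66 and Epas1 by -0.52. With 1 array left out, these ran from -1.71 to -0.32, from 0.36 to 0.96 and from -1.43 to 0.39, so the sign for Epas1 turned. None of the 10 genes was called there, beside 0.0359% of all genes, and 1 had an unadjusted p under 0.05 in limma, beside 2005 of the 16721 genes. Among the heterozygotes, CKIalpha Het/p21 KO differed from CKIalpha Het by -0.53 for Fth1, -0.58 for Hmox1 and 0.45 for Epas1. CKIalpha Het/p53 KO differed from CKIalpha Het by 0.54 for Cybrd1 and 0.44 for Slc40a1, with overlapping arrays for both genes. None of the 10 was called in these pairs, beside 0.00598% and 0% of all genes, and 2 and 0 had an unadjusted p under 0.05 in limma, beside 5.01% and 5.63%.

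Whether the CKIalpha difference itself varied with the background was read from the difference of differences. For Cybrd1 it was 0.18 ± 1.42 in the p21 KO background and 1.94 ± 1.42 in the p53 KO background. For Slc40a1 the p53 value was 1.45 ± 1.05. For Hmox1 the values were 1.24 ± 0.29 and 0.93 ± 0.29. For Slc11a2 the p53 value was 1.31 ± 0.99 and for Tfrc 0.89 ± 0.44. In the limma fit 0 of the 10 were called for p21, beside 0% of all genes, and 0 for p53, beside 0.0179%. An unadjusted p under 0.05 was reached by 1 of the 10 in each, beside 8.13% and 14.9% of all genes.

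The genes with array profiles most like those of Cybrd1 and Slc40a1 were found by the root mean square difference of log2 values over the 12 arrays, each gene centred on its own mean. Among 16720 other genes, Slc40a1 was the nearest to Cybrd1, at 0.74. After it came Ly6d at 1.24, Anxa10 at 1.25, Gml at 1.27, Mboat1 at 1.30 and Mecom at 1.38. Nearest to Slc40a1 was Gml at 0.62, then Cybrd1 at 0.74, Mboat1 at 0.77, Anxa10 and Ly6d at 0.78 and Mecom at 0.83. The same 5 genes outside the iron genes head both lists. Slc11a2 ranked 112 for Cybrd1 and 133 for Slc40a1, and Ankrd37 ranked 286 and 397.

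These 5 genes encode GPI-anchored proteins of the Ly6 family (Ly6d and Gml), an annexin (Anxa10), a lysophospholipid acyltransferase (Mboat1) and a zinc finger transcription factor (Mecom). Mboat1 read 7.99 and 9.63 in CKIalpha KO against 5.53 and 5.79 in CKIalpha Het, and 10.46 and 10.03 in CKIalpha KO/p53 KO against 6.21 and 6.13 in CKIalpha Het/p53 KO. Gml read 6.10 and 7.67 in CKIalpha KO against 3.88 and 3.84 in CKIalpha Het, and 8.40 and 8.43 in CKIalpha KO/p53 KO against 4.12 and 4.67 in CKIalpha Het/p53 KO. Like the 2 iron genes, all 5 had a lower replicate 1 than replicate 2 array in CKIalpha KO. They were selected for this likeness, so no test of it is given.

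**Figure D3:**
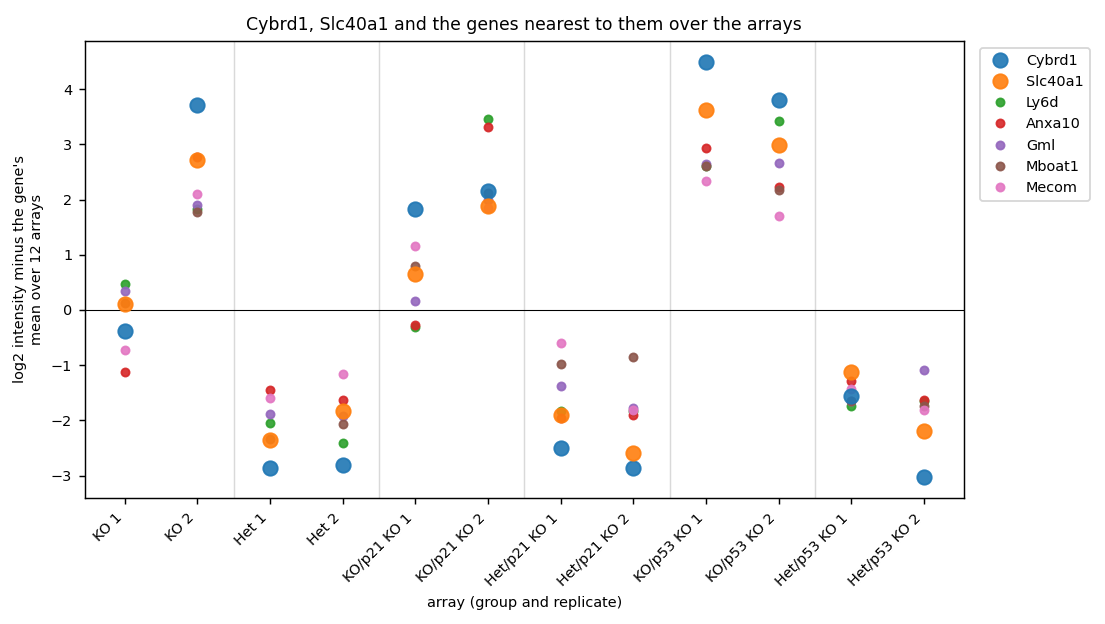
Log2 intensity minus the gene's mean over 12 arrays (vertical axis) for Cybrd1, Slc40a1 and the 5 genes nearest to them, on each array (horizontal axis, group and replicate). Cybrd1 and Slc40a1 lie above their means on the CKIalpha KO/p21 KO and CKIalpha KO/p53 KO arrays and below them on all CKIalpha Het arrays, and CKIalpha KO replicate 1 sits near 0.

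Beyond the 10 genes, a list of 47 other genes of iron and heme handling had 43 members in the fit. Hamp and Hephl1 were left out because they exceeded the 25th percentile on 0 arrays. In CKIalpha KO and in CKIalpha KO/p21 KO against their CKIalpha Het counterparts, 0 of 43 were called in each, with 10 and 12 at an unadjusted p under 0.05 in limma, beside 9.09% and 23.2% of all genes. In CKIalpha KO/p53 KO, 2 of 43 rose, beside 11.0% of all genes, and 5 of 43 fell, beside 6.82%. The median difference over the list was 0.07, 0.11 and -0.02 in the CKIalpha KO, p21 and p53 comparisons, against 0.02, -0.01 and -0.06 over all genes.

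The 2 that rose in CKIalpha KO/p53 KO are zinc transporter family members that also carry iron. Slc39a14 (ZIP14) read 10.59 and 9.97 in CKIalpha KO/p53 KO and 8.91 and 9.18 in CKIalpha Het/p53 KO, a difference of 1.23 ± 0.33 (limma adjusted p = 0.0314). Slc39a8 (ZIP8) read 7.20 and 7.57 against 6.41 and 5.88 in the same groups, a difference of 1.24 ± 0.28 (limma adjusted p = 0.0185). Neither pair of groups overlapped. In the CKIalpha KO comparison the 2 parted, with 0.97 ± 0.33 for Slc39a14 and -0.15 ± 0.28 for Slc39a8, and neither passed.

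The 5 that fell include a mitochondrial iron importer and a heme exporter. Slc25a37 (mitoferrin 1) read 7.19 and 7.05 in CKIalpha KO/p53 KO and 8.66 and 8.24 in CKIalpha Het/p53 KO, a difference of -1.33 ± 0.28 (limma adjusted p = 0.0148). Flvcr1, known as a heme exporter, read 8.97 and 8.81 in CKIalpha KO/p53 KO and 10.19 and 9.81 in CKIalpha Het/p53 KO, a difference of -1.11 ± 0.28 (limma adjusted p = 0.0271). Aco1, which serves as an aconitase or, without its iron-sulfur cluster, as an iron-regulatory protein beside Ireb2, read 9.86 and 9.999 in CKIalpha KO/p53 KO and 10.97 and 10.87 in CKIalpha Het/p53 KO, a difference of -0.99 ± 0.18 (limma adjusted p = 0.0106). All 3 genes had every CKIalpha KO array below every CKIalpha Het array of its own background in the other 2 comparisons as well, without passing there. For Flvcr1 those differences were -1.58 ± 0.28 in CKIalpha KO and -1.08 ± 0.28 in CKIalpha KO/p21 KO. In these 2 comparisons 7 and 9 of the 43 genes had both CKIalpha KO arrays below, beside 16.8% and 24.3% of all genes. Abcg2, an exporter of porphyrins and drugs, differed by -0.92 ± 0.28 and Hpx, the heme-binding hemopexin, by -0.52 ± 0.13 (limma adjusted p = 0.0466 and 0.0248). Hpx read no higher than 4.77 on these 4 arrays, below the array medians. Of the 7 calls, 0 were made without replicate 1 of CKIalpha Het/p53 KO or without replicate 2 of CKIalpha KO/p53 KO, and Abcg2 was called in 7 of 18 alternative settings.

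**Figure D4:**
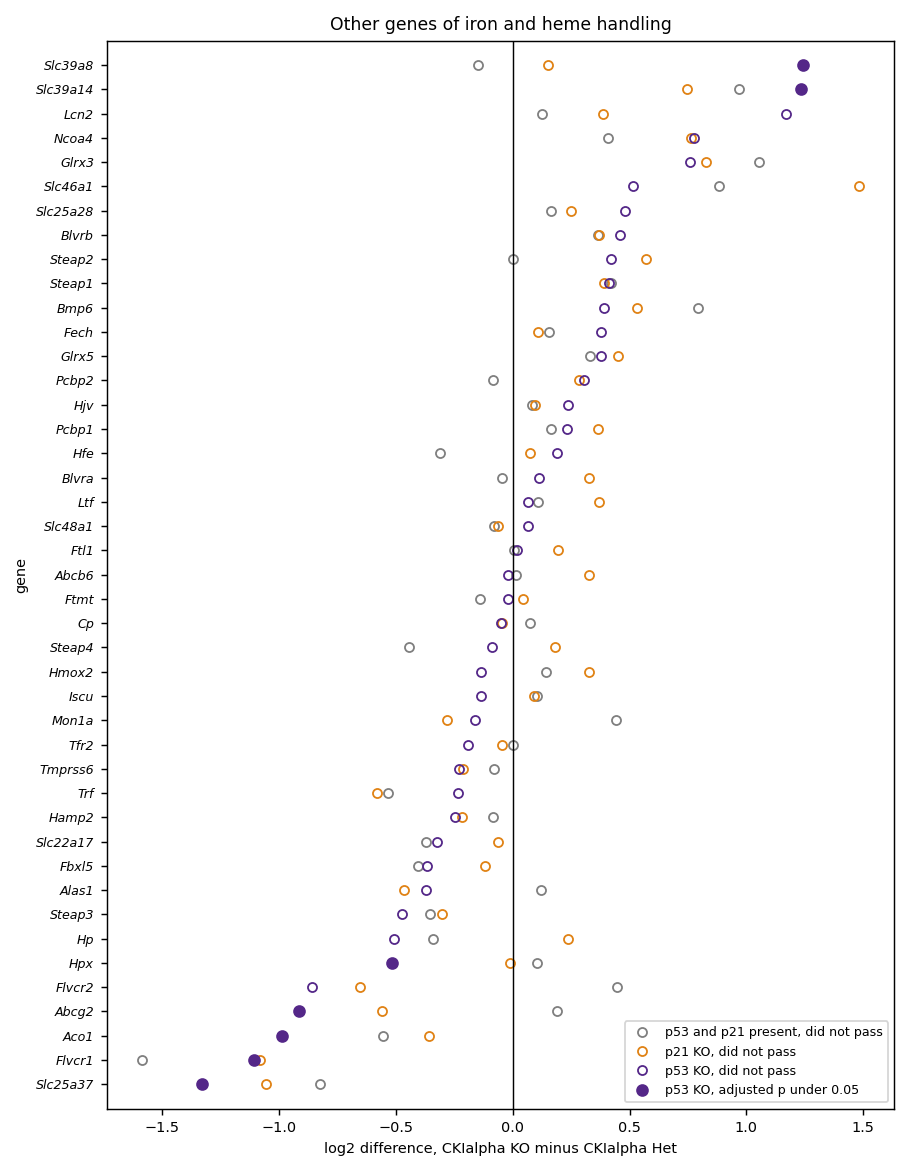
Log2 difference between CKIalpha KO and CKIalpha Het enterocytes (horizontal axis) for the 43 other genes of iron and heme handling (vertical axis) in the 3 backgrounds, with filled points for an adjusted p under 0.05. Filled points occur in the p53 KO background alone, 2 to the right of 0 and 5 to the left.

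The hypoxia response list bears on Epas1 and Ankrd37. Of its 34 genes, 32 were tested. None was called in CKIalpha KO, where 5 had an unadjusted p under 0.05 in limma, beside 9.09% of all genes. In CKIalpha KO/p21 KO, 1 fell, beside 0.514% of all genes, and 0 rose. In CKIalpha KO/p53 KO, 5 of 32 rose, beside 11.0% of all genes, and 1 fell, beside 6.82%. The list medians were 0.10, 0.07 and 0.11.

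The glucose transporter Slc2a1 read 8.09 and 8.57 in CKIalpha KO/p53 KO and 7.38 and 7.59 in CKIalpha Het/p53 KO, a difference of 0.85 ± 0.24 (limma adjusted p = 0.0374). The carbonic anhydrase Car9 read 8.69 and 7.73 in CKIalpha KO/p53 KO and 6.10 and 7.32 in CKIalpha Het/p53 KO, a difference of 1.50 ± 0.41 (limma adjusted p = 0.0338). Ero1a, an oxidoreductase of the endoplasmic reticulum, the stress regulator Ddit4 and the glycolytic enzyme Aldoc rose by 1.12, 1.20 and 1.46 in the same comparison. The members that fell were Ndrg1, a stress-induced gene, with a difference of -1.74 ± 0.38 in CKIalpha KO/p21 KO (limma adjusted p = 0.0497), and the Myc antagonist Mxi1, with -0.68 ± 0.14 in CKIalpha KO/p53 KO (limma adjusted p = 0.014). Mxi1 differed by 0.42 ± 0.14 in CKIalpha KO, where it did not pass. Of 18 alternative settings, Ndrg1 was called in 4, Aldoc in 7, Slc2a1 in 10 and the other 4 genes in 14 or 15. Leaving out replicate 1 of CKIalpha Het/p53 KO ended the calls of Mxi1, Ero1a, Ddit4, Car9, Slc2a1 and Aldoc with p53 knocked out.

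The antioxidant genes regulated by NRF2 bear on Hmox1, which that factor also activates. Of 14 listed, 13 were tested. None was called in CKIalpha KO or CKIalpha KO/p21 KO, with 6 and 7 at an unadjusted p under 0.05 in limma, beside 9.09% and 23.2% of all genes. In CKIalpha KO/p53 KO, 4 of 13 rose and 1 fell, beside 11.0% and 6.82% of all genes. The cystine transporter Slc7a11 read 6.14 and 6.47 in CKIalpha KO/p53 KO and 3.86 and 3.99 in CKIalpha Het/p53 KO, a difference of 2.38 ± 0.23 (limma adjusted p = 0.00341). Slc7a11 was also higher in CKIalpha KO/p53 KO than in CKIalpha KO, by 2.14 ± 0.23 (limma adjusted p = 0.00961). The glutathione peroxidase Gpx2 read 11.93 and 12.27 in CKIalpha KO/p53 KO and 9.57 and 9.97 in CKIalpha Het/p53 KO, a difference of 2.33 ± 0.40 (limma adjusted p = 0.00889). In CKIalpha KO, Gpx2 differed by 2.08 ± 0.40 and did not pass. Glutathione reductase Gsr and phosphogluconate dehydrogenase Pgd rose by 1.00 and 0.91 with p53 knocked out, and Osgin1, an oxidative stress gene, fell by 1.18. Slc7a11 was called in 18 of 18 alternative settings, and the calls of Gpx2, Gsr, Pgd and Osgin1 were lost without replicate 1 of CKIalpha Het/p53 KO or replicate 2 of CKIalpha KO/p53 KO. The list medians were 0.20, 0.53 and 0.02 in the CKIalpha KO, p21 and p53 comparisons.

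Markers of cell types and regions also differed between groups in part of the comparisons. The mean log2 level of the 16 absorptive enterocyte markers was 11.75 to 11.95 in CKIalpha KO and 11.94 to 12.32 in CKIalpha Het, 10.93 to 12.05 in CKIalpha KO/p21 KO and 11.98 to 12.07 in CKIalpha Het/p21 KO, and 10.95 to 11.27 in CKIalpha KO/p53 KO and 12.26 to 12.43 in CKIalpha Het/p53 KO. Of these 16 markers, 0 and 0 were called lower in the CKIalpha KO and p21 comparisons, beside 0.514% of all genes in the p21 comparison. With p53 knocked out 7 were called lower, beside 6.82%, namely Enpep, Lct, Sis, Slc15a1, Slc5a1, Treh and Vil1. None was called higher. Both CKIalpha KO arrays were below both CKIalpha Het arrays for 7, 6 and 15 of the 16 in the CKIalpha KO, p21 and p53 comparisons. The shares of all genes were 16.8%, 24.3% and 35.7%. Absorptive cells are the cells that carry Cybrd1 and Slc40a1 in the healthy gut. The 8 crypt base markers averaged 7.85 to 8.40 in CKIalpha KO/p53 KO and 7.10 to 7.12 in CKIalpha Het/p53 KO, and 4 of 8 (Axin2, Cdca7, Rnf43 and Sox9) were called higher, beside 11.0% of all genes. In CKIalpha KO/p21 KO, 2 of 8 (Axin2 and Rnf43) were called higher, beside 1.46%. The crypt base differences were above 0 for 6 of 8 genes with p21 knocked out and for 6 of 8 with p53 knocked out. The lowest were -0.70 and -1.58. In CKIalpha KO these markers averaged 7.07 to 7.69, against 7.29 to 7.35 in CKIalpha Het. There 5 of 8 differences were above 0, the lowest was -1.63 and none was called.

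The mean level of the 8 Paneth and goblet cell markers was lower on both arrays of each CKIalpha KO group. It was 10.90 to 11.00 in CKIalpha KO and 11.30 to 11.44 in CKIalpha Het, 10.52 to 10.82 in CKIalpha KO/p21 KO and 11.36 to 11.48 in CKIalpha Het/p21 KO, and 10.31 to 10.61 in CKIalpha KO/p53 KO and 11.00 to 11.04 in CKIalpha Het/p53 KO. Not every member followed this mean. Differences were above 0 for 2, 1 and 2 of the 8 in the CKIalpha KO, p21 and p53 comparisons. The highest were 0.96, 1.11 and 2.73. The goblet gene Tff3 was called lower in CKIalpha KO/p21 KO, 1 of 8 beside 0.514% of all genes. In CKIalpha KO/p53 KO, Agr2, Clca1, Muc2 and Tff3 were called lower, 4 of 8 beside 6.82%, and the Paneth cell protease gene Mmp7 was called higher, 1 of 8 beside 11.0%. The 10 tested fibroblast, muscle and endothelial markers averaged 5.26 to 5.37 in CKIalpha KO and 5.17 to 5.47 in CKIalpha Het, 4.90 to 5.81 in CKIalpha KO/p21 KO and 5.58 to 6.38 in CKIalpha Het/p21 KO, and 5.16 to 5.20 in CKIalpha KO/p53 KO and 4.99 to 5.04 in CKIalpha Het/p53 KO. Of these, Eng alone was called, lower in CKIalpha KO/p53 KO, 1 of 10 beside 6.82%. The part of these shifts in the iron gene values was not tested.

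Iron absorption genes are strongest in the duodenum, so regional markers were read as well. The 8 proximal small intestine markers averaged 6.63 to 6.76 in CKIalpha KO/p53 KO and 7.01 to 7.22 in CKIalpha Het/p53 KO, with Onecut2 called higher, 1 of 8 beside 11.0% of all genes, and the hormone genes Cck, Ghrl and Gip called lower, 3 of 8 beside 6.82%. In CKIalpha KO/p21 KO they averaged 6.32 to 6.80, against 6.80 to 6.84 in CKIalpha Het/p21 KO, and Gip was called lower, 1 of 8 beside 0.514%. In CKIalpha KO they averaged 7.22 to 7.33, against 7.18 to 7.26 in CKIalpha Het. Differences were above 0 for 5, 3 and 3 of the 8 in the CKIalpha KO, p21 and p53 comparisons, the highest being 0.97, 1.48 and 1.13. Slc46a1 stands both among these 8 and in the list of other iron handling genes. The 10 distal small intestine and colon markers averaged 5.66 to 6.16 in CKIalpha KO/p53 KO and 7.06 to 7.76 in CKIalpha Het/p53 KO, and 5 of the 10 (Cubn, Fgf15, Nts, Osr2 and Pyy) were called lower, beside 6.82%. In CKIalpha KO the distal markers averaged 6.42 to 7.06, against 7.18 to 7.25 in CKIalpha Het. In CKIalpha KO/p21 KO they averaged 6.24 to 6.82, against 6.84 to 7.10 in CKIalpha Het/p21 KO. Of the 10, none was called in either comparison, and 4 and 5 had differences above 0. The part of region in the iron gene values was not tested.

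Macrophages also express Slc40a1 and Hmox1. The 10 tested macrophage and myeloid markers averaged 4.82 to 5.02 in CKIalpha KO and 5.13 to 5.33 in CKIalpha Het, 4.96 to 5.05 in CKIalpha KO/p21 KO and 5.03 to 5.41 in CKIalpha Het/p21 KO, and 4.91 to 4.93 in CKIalpha KO/p53 KO and 4.81 to 4.89 in CKIalpha Het/p53 KO. The iron-recycling macrophage genes Cd163 and Spic exceeded the arrays' 25th percentile on 0 arrays. In CKIalpha KO/p53 KO, Cd14 and Cd68 were called higher, 2 of 10 beside 11.0% of all genes, and in the other 2 comparisons none of the 10 was called. Lymphocyte markers were lower on both CKIalpha KO/p21 KO arrays than on both CKIalpha Het/p21 KO arrays for 10 of 10 genes, beside 24.3% of all genes, with a median difference of -1.49 and none called. The 3 tested red blood cell markers averaged between 4.31 and 4.59 in all groups.

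**Figure D5:**
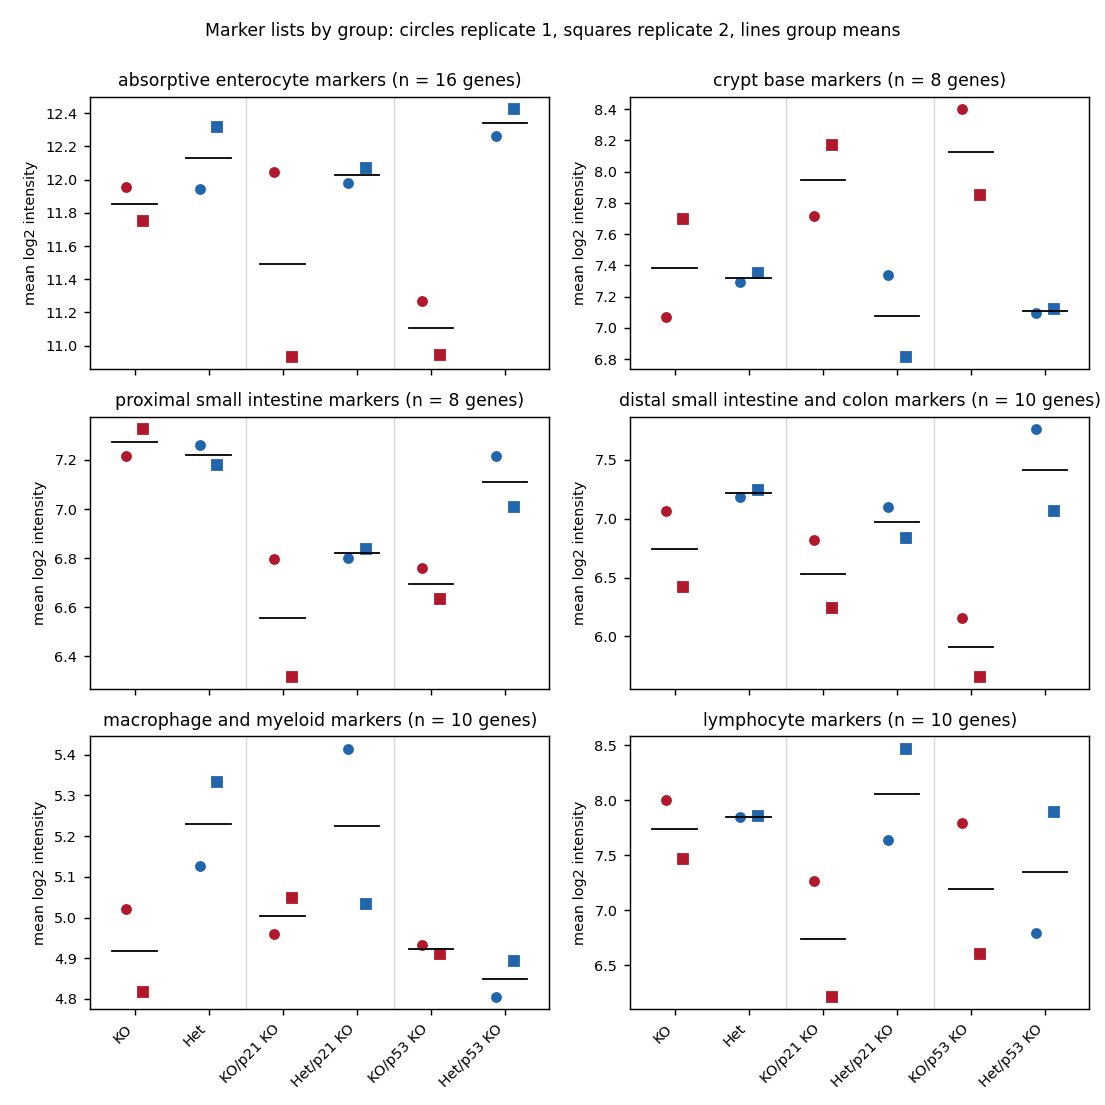
Mean log2 intensity (vertical axis) of 6 marker lists on each array, by group (horizontal axis), with circles for replicate 1, squares for replicate 2 and lines for group means. Absorptive enterocyte markers are lowest on replicate 2 of CKIalpha KO/p21 KO and on both CKIalpha KO/p53 KO arrays, and replicate 1 of CKIalpha KO/p21 KO is not low.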

How the data were processed

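Values for 35556 probe sets on 13 arrays were deposited. The authors used RMA in Affymetrix Expression Console 1.1 and then scaled by the median, per the labels' protocols. The deposited values were read as log2, a base taken from their range, since the labels do not state it. Probe sets with 1 gene symbol numbered 21789. The probe set with the highest mean stood for a gene, and a gene was tested where at least 2 arrays exceeded the array's 25th percentile. RefSeq genes of GRCm38.p6 matched 16665 of the tested genes.

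The 12 arrays named replicate 1 or 2 were fitted in limma 3.58.1 (R 4.3.3) with 1 coefficient per group and 6 residual degrees of freedom. Two-sided moderated statistics were adjusted by Benjamini-Hochberg over 16721 genes in each of 10 comparisons. The labels call the replicates biological, and with 2 per group their number limits the precision. The script was tested on simulated data. Figures were drawn with matplotlib 3.10.9.

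The genes and lists were chosen with earlier results of these data known. All 10 iron genes were described. Of the other iron handling, hypoxia and NRF2 lists, the genes called in any of the 3 comparisons of CKIalpha KO with CKIalpha Het were named, at most 8 per list, and the 5 genes nearest to Cybrd1 and to Slc40a1 were named, passing over predicted and immune receptor symbols. Marker genes were named from the calls after their values were seen. Replicate numbers follow the Xist pattern, but over 15 pairs of groups the correlation of replicate differences was -0.16 to 0.25 and exceeded 0.1 in 5, so they were not taken as pairs. Alternatives were a further quantile normalisation, no filter, an intensity trend, array weights, the mean of probe sets, the replicate as a block and each array left out.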

Additional observations from a re-analysis of the deposited data

Results flagged for a closer look

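The array titled CKIalpha KO/p53 KO (3), whose other labels name a CKI knockout alone, entered no comparison, and 5 of the 10 iron genes read higher on it than on all 6 CKIalpha Het arrays. Cybrd1 read 11.7 on it, against 5.07 to 6.55 on the CKIalpha Het arrays, and Slc40a1 read 11.04, against 5.37 to 6.83. Slc11a2 read 10.02, against 7.94 to 8.65. Fth1 read 13.0, against 12.07 to 12.68, and Hmox1 4.78 (4.778), against 3.91 to 4.59. Cybrd1, Slc40a1, Slc11a2 and Hmox1 lay within the range of the 6 CKIalpha KO arrays, and Fth1 lay above their highest value of 12.77. The other 5 genes, namely Tfrc, Heph, Ireb2, Epas1 and Ankrd37, were not above all CKIalpha Het arrays. The share of all genes that read higher on this array than on all CKIalpha Het arrays was not counted. Nothing is therefore read from the count of iron genes. The array's genotype is unsettled, and these values were not tested.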

How the results depend on the processing

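The 3 calls among the iron genes with p21 knocked out depended on the settings. They became 1 (Hmox1) after a further quantile normalisation, 0 with no filter on dim genes, 0 with array weights and 1 (Hmox1) with the replicate block, and ran from 0 to 4 when each array was left out. The replicate block also gave 1 call among the other iron handling genes in that comparison (Slc25a37, 0 without the block), ended the calls of Ndrg1 with p21 knocked out and of Aldoc with p53 knocked out, and left 2 of the 4 calls over all genes in CKIalpha KO against CKIalpha Het. It moved no other count of calls among the iron genes or the other iron handling genes. Leaving out each array gave 0 to 2 calls among the iron genes and 0 to 1 among the other iron handling genes in CKIalpha KO against CKIalpha Het, where Cybrd1 and Slc40a1 were the 2 called without replicate 1 of CKIalpha KO. With p53 knocked out it gave 0 to 4 and 0 to 7. The 7 calls became 0 without replicate 1 of CKIalpha Het/p53 KO or replicate 2 of CKIalpha KO/p53 KO. With p21 knocked out it gave 0 to 5 among the other iron handling genes, with 5 without replicate 1 of CKIalpha KO/p21 KO. It gave 0 to 2 iron genes in the p21 difference of differences, 0 to 2 of each list in CKIalpha KO/p21 KO and in CKIalpha KO/p53 KO against CKIalpha KO, and 0 to 1 iron gene in CKIalpha KO/p53 KO against CKIalpha KO/p21 KO. The calls over all genes also moved with the array left out, so nothing about these genes is read from these counts. A group left with 1 array is assumed to vary like the others, and the cause of each change was not tested.

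No called value changed sign. The iron genes' differences moved by less than 1 SD between replicates in 600 of 600 values outside the left-out arrays, and by more in 86 with an array left out. Quantile normalisation moved the median of all genes by at most 0.04, and turned the split of all calls with p53 knocked out from 1841 higher and 1140 lower to 1407 higher and 1369 lower. With 2 arrays per group, precision is limited by their number, and Hmox1 and Hpx were read near the dim end.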
